A study of Mus musculus with 8 samples.

Results

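The 10 genes described here make, sense and break down prostaglandins in mouse keratinocytes (KCs), the epithelial cells of the epidermis. They were found by symbol in the deposited gene tables, where 10 of 41457 listed genes matched, 1 table entry each. They comprise the phospholipase gene Pla2g4a, the cyclooxygenase genes Ptgs1 and Ptgs2, the synthase genes Ptges, Ptges2, Ptges3 and Ptgis, the receptor genes Ptger2 and Ptger4, and the degradation gene Hpgd. Of these, 8 had enough reads to be tested, and Ptgis and Ptger2 did not.

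Poly(A) RNA was sequenced from untreated KCs of the tails of adult wild type C57BL/6 mice (C57BL/6J in the study's text) after 1 week (n = 4) or 3 weeks (n = 4) in culture. All 8 cultures were grown in the same serum-free medium with low calcium and were split when they approached confluence, so that time in culture includes splitting. The study drew both times from shared batches of KCs. The tables of replicates 1, 3 and 4 at 1 week carry the numbers 46, 49 and 90 in their names. So do those of replicates 1, 2 and 4 at 3 weeks, in this order. These numbers are read here as preparation numbers, although the labels neither give nor explain them. Samples with the same number are called a shared preparation below. The main comparison did not pair the samples. No cells lacking NFAT5 were analysed here, and how many mice or splits each culture had is not given in the sources used here.

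Prostaglandins are lipid signals that are cut, oxidised and reshaped from arachidonic acid of the cell membrane in successive steps. A phospholipase A2 frees the acid, a cyclooxygenase turns it into prostaglandin H2, and terminal synthases turn that into prostaglandin E2 (PGE2), prostacyclin and other products. PGE2 acts through G protein-coupled receptors, of which EP2 and EP4 raise cyclic AMP, and it is inactivated by oxidation. In epidermis, PGE2 is known as a product of KCs that takes part in wound repair, inflammation and proliferation.

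The exon reads numbered between 13896807 and 20026084 per sample, and 81.6% to 84.7% of them mapped to a single place. KC markers were abundant, with a summed level of 8 genes of 12527 to 14785 reads scaled to exon length and mapped reads (RPKM) at 1 week and 7537 to 8700 RPKM at 3 weeks, and 2 of these genes were lower at 3 weeks. Mitochondrial genes took 2.19% to 3.66% of exon reads at 1 week, 3.73% to 4.43% in 3 samples at 3 weeks and 13.3% in replicate 3 at 3 weeks. Replicate 4 at 3 weeks correlated least with the other samples of its time (mean Pearson r of log2 values 0.93). Log2 fold changes below are 3 weeks over 1 week from edgeR, after scaling for library composition by the trimmed mean of M values (TMM). P-values of the quasi-likelihood test were adjusted by Benjamini and Hochberg's method over all 12590 genes tested, and a gene was called higher or lower when this value was under 0.05. The p-values weigh the difference between the times against the spread between these samples, which the test took as independent. RPKM values carry no TMM scaling. In these bulk samples, fewer cells of a type and less RNA per cell cannot be told apart.

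Among the 8 tested genes, Ptger4 was higher at 3 weeks, Pla2g4a and Ptges3 were lower, and 5 did not pass the test. The 3 calls are 3 of 8 genes, beside 32.8% of all tested genes that were called, 15.7% higher and 17.0% lower. The median log2 fold change of the 8 genes was -0.35, beside 0.03 for all genes tested. Ptgs2 and Ptges3 were the most abundant members at both times, and the receptors, Ptgs1 and Ptgis were the least abundant.

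**Figure D1:**
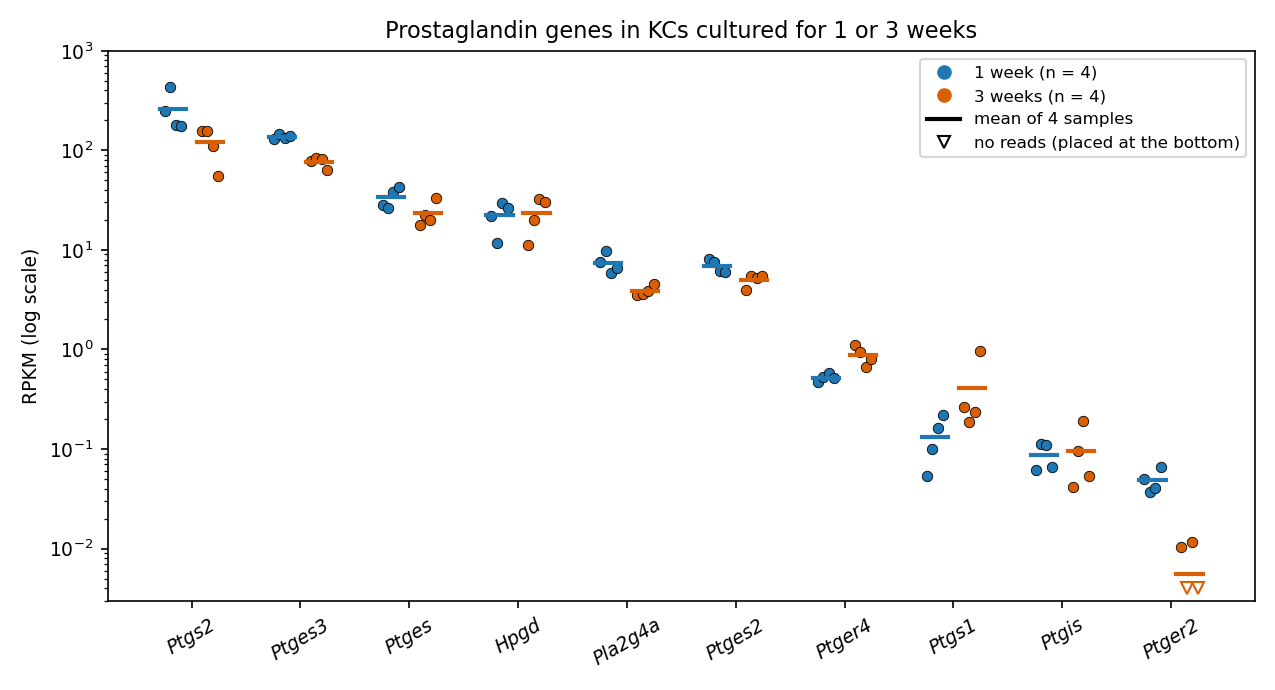
Each point is the RPKM of 1 sample on a log axis for the 10 prostaglandin genes, in blue for 1 week and orange for 3 weeks (n = 4 each), and bars mark the means. The groups of Pla2g4a, Ptgs2, Ptges2, Ptges3, Ptger2 and Ptger4 do not overlap on this scale, as in 37.0% of all tested genes. Ptger2 had 0 to 6 reads a sample and was not tested, and the groups of Ptges2 overlap after TMM scaling. The mean level runs from 258 RPKM (Ptgs2, 1 week) to 0.00551 RPKM (Ptger2, 3 weeks).

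The promoters of the called members and of Ptgs2, the most abundant member, are shown so that the start regions of genes that moved in different directions can be read side by side. They are RefSeq sequences on build GRCm38.p6, from 250 bases before the start site and 30 bases from it on, 5′ to 3′ on the strand of the gene. The search for motifs covered 300 bases, with 50 from the start site on, on both strands, and 9 of the 10 members were matched by symbol. Capitals mark the letters of any motif found. For Ptgs2, Pla2g4a and Ptger4 the RefSeq start equals the gene start in the deposited tables, and for Ptges3 it lies 28 bases away.

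Pla2g4a, chr1:149961261-149961540, - strand: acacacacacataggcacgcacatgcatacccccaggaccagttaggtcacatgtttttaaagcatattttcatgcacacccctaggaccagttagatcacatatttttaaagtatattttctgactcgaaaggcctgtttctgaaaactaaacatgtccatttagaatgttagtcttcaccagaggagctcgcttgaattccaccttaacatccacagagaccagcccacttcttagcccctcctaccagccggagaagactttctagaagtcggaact

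Ptgs2, chr1:150099781-150100060, + strand: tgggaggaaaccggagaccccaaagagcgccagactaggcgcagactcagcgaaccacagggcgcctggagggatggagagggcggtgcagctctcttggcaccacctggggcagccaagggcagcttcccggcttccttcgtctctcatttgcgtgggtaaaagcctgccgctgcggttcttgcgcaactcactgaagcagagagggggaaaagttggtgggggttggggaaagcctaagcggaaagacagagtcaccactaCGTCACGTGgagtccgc

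Ptges3, chr10:128058732-128059011, + strand: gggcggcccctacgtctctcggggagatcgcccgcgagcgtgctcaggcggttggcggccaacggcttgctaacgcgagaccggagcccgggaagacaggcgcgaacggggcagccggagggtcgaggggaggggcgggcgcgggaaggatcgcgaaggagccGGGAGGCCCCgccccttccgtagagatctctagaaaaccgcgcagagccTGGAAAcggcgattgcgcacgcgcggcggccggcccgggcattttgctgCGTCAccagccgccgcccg

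Ptger4, chr15:5244158-5244437, - strand: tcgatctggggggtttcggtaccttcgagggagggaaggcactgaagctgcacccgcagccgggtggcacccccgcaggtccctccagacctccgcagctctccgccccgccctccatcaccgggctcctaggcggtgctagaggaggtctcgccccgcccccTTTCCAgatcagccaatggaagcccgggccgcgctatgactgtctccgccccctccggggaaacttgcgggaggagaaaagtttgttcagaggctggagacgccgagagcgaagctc

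The motifs searched were the cAMP response element TGACGTCA, its core TGACG, the AP-1 site TGANTCA, the E-box CACGTG, the NF-kB site by its usual consensus, the TATA box as TATAAA (13.6% of promoters, in none of the 4 shown), and TGGAAA, the letters that open the element bound by NFAT5. The full cAMP response element was found in none of the 9 promoters and in 1.79% of 32851 promoters of this length, and the AP-1 site in none of the 9 and in 7.81%. The core TGACG (20.8% of promoters) was found in Ptgs2 and Ptges3 on the opposite strand, so that the letters shown read CGTCA. In Ptgs2 it lies from 13 to 17 bases past the start site, where it overlaps an E-box (7.15%) from 16 to 21. In Ptges3 it lies from 11 to 15. An NF-kB match (8.46%) was found in Ptges3 from -87 to -78. TGGAAA (21.4%) was found in Ptges3 from -38 to -33 and, on the opposite strand, in Ptger4 from -87 to -82. None of these motifs was found in Pla2g4a. The promoter of Ptges3 was 73.7% G and C and that of Ptger4 67.0%, beside 59.3% for Ptgs2 and 45.3% for Pla2g4a. Such matches describe letters and not bound sites.

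Pla2g4a encodes cytosolic phospholipase A2 alpha, the enzyme that frees arachidonic acid for prostaglandin synthesis, and it was lower at 3 weeks. The gene (ENSMUSG00000056220) lies on the minus strand at chr1:149829618-149961290 (GRCm38). Its level was 7.49, 9.81, 5.91 and 6.51 RPKM in replicates 1 to 4 at 1 week and 3.53, 3.58, 3.89 and 4.56 RPKM at 3 weeks. The lowest sample at 1 week stood above the highest at 3 weeks, and the mean went from 7.43 ± 1.72 to 3.89 ± 0.475 RPKM (SD, n = 4 each). The log2 fold change was -0.77 ± 0.18 (SE, edgeR adjusted p = 0.0112), which is 1.70-fold higher at 1 week.

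Among 8595 well-measured genes, the 3 whose log2 level followed that of Pla2g4a most closely over the 8 samples were Mios (Pearson r = 0.98), Uri1 (0.98) and Dhrs7 (0.98). These values describe likeness across both times and share the libraries, their depth and the difference between the times. Dhrs7 had a log2 fold change of -1.05 and Mios of -0.64.

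The cyclooxygenase genes lay far apart in level. Ptgs2 encodes the inducible enzyme COX-2, and Ptgs1 encodes COX-1, the form usually described as constitutive. Neither passed the test between the times. Ptgs2 (ENSMUSG00000032487, chr1:150100031-150108227, plus strand) ranked 204 by mean RPKM among all listed genes at 1 week and 412 at 3 weeks.

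Ptgs2 was at 246, 434, 179 and 175 RPKM in replicates 1 to 4 at 1 week and at 158, 157, 111 and 54.9 RPKM at 3 weeks. Every sample at 1 week was above every sample at 3 weeks, also as TMM-scaled counts (CPM; 784 to 1909 against 263 to 770), a separation that 34.9% of all tested genes showed on that scale. The mean was 258 ± 122 RPKM at 1 week and 120 ± 48.6 RPKM at 3 weeks. The log2 fold change of -0.94 ± 0.39 (SE) had an edgeR adjusted p of 0.0974, so the difference was not called beyond the spread between samples. Replicate 2 at 1 week was the highest and replicate 4 at 3 weeks the lowest. Without replicate 2 at 1 week the log2 fold change was -0.58 (edgeR adjusted p = 0.266), whereas DESeq2 on all samples gave -0.93 with an adjusted p of 0.0476.

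Ptgs1 (ENSMUSG00000047250, chr2:36230426-36252272, plus strand) had 4, 8, 9 and 15 exon reads at 1 week and 19, 12, 15 and 55 at 3 weeks. This equals 0.0541, 0.10, 0.161 and 0.219 RPKM against 0.262, 0.188, 0.235 and 0.964 RPKM. The groups overlapped, and replicate 4 at 3 weeks stood well above the other samples of its time. Ptgs1 reached the read minimum in 4 samples at 3 weeks but in 2 at 1 week, so that it was tested because of its 3-week reads. Its log2 fold change was 1.76 ± 0.62 (SE, edgeR adjusted p = 0.0565) and was 0.98 (adjusted p = 0.129) without replicate 4 at 3 weeks. It passed in DESeq2 (1.79, adjusted p = 0.0240) and, without replicate 2 at 3 weeks, in edgeR (2.01, adjusted p = 0.0481).

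The ratio of Ptgs2 to Ptgs1, in RPKM within a sample, was 4548, 4340, 1107 and 797 at 1 week and 600, 834, 472 and 56.9 at 3 weeks. The ranges overlap only through replicate 4 at 1 week and replicate 2 at 3 weeks, and the denominator rests on 4 to 55 reads. Ptgs2 transcripts thus outnumbered those of Ptgs1 in each of the 8 samples.

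Of the genes for PGE2 synthases, Ptges3 was lower at 3 weeks, and Ptges and Ptges2 did not pass the test. Ptges3 encodes the cytosolic synthase, which is also known as p23, a co-chaperone of Hsp90. It (ENSMUSG00000071072, chr10:128058954-128077272, plus strand) was at 130, 145, 134 and 138 RPKM at 1 week and at 78.2, 84.3, 82.0 and 63.0 RPKM at 3 weeks. The groups were far apart and the samples of each time close together, with a coefficient of variation of 4.67% at 1 week and 12.4% at 3 weeks. The mean was 137 ± 6.39 RPKM and then 76.9 ± 9.56 RPKM (SD, n = 4 each), with a log2 fold change of -0.66 ± 0.14 (SE, edgeR adjusted p = 0.00701).

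Ptges encodes the membrane-bound, inducible PGE2 synthase that is usually coupled to COX-2. The level of this gene (ENSMUSG00000050737, chr2:30889471-30929863, minus strand) was 28.2, 26.6, 38.6 and 43.3 RPKM at 1 week and 17.6, 22.6, 20.1 and 33.1 RPKM at 3 weeks. Replicate 4 was the highest at both times, and the groups overlapped. The log2 fold change was -0.39 ± 0.22 (SE, edgeR adjusted p = 0.208). Of its exon reads, 85.2% mapped to a single place, so its level is less certain than that of the other abundant members. A processed pseudogene lies in one of its introns, and whether it shares reads with Ptges was not tested.

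Ptges2 encodes a further membrane-associated PGE2 synthase. This gene (ENSMUSG00000026820, chr2:32395896-32405772, plus strand) was measured at 8.06, 7.55, 6.09 and 6.02 RPKM at 1 week and at 3.94, 5.41, 5.20 and 5.46 RPKM at 3 weeks. The groups did not overlap on the RPKM scale, which 37.0% of all tested genes also showed, but they did overlap after TMM scaling. Its log2 fold change was -0.30 ± 0.17 (SE, edgeR adjusted p = 0.198).

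Within the summed RPKM of the 3 PGE2 synthase genes, the proportions changed little in their medians. Ptges3 made up a median of 76.6% at 1 week and 75.7% at 3 weeks, Ptges 19.3% and 19.4%, and Ptges2 3.81% and 4.83%. The sample farthest from these values was replicate 4 at 3 weeks, where Ptges3 made up 62.1% and Ptges 32.6%.

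Ptgis, which encodes prostacyclin synthase (ENSMUSG00000017969, chr2:167191805-167240604, minus strand), had 3, 6, 4 and 3 exon reads at 1 week and 2, 4, 8 and 2 at 3 weeks. These counts were too low for the test, and the groups overlapped. They correspond to 0.0418 to 0.190 RPKM, about the level that 3 reads give in these libraries (0.0567 to 0.0814 RPKM).

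**Figure D2:**
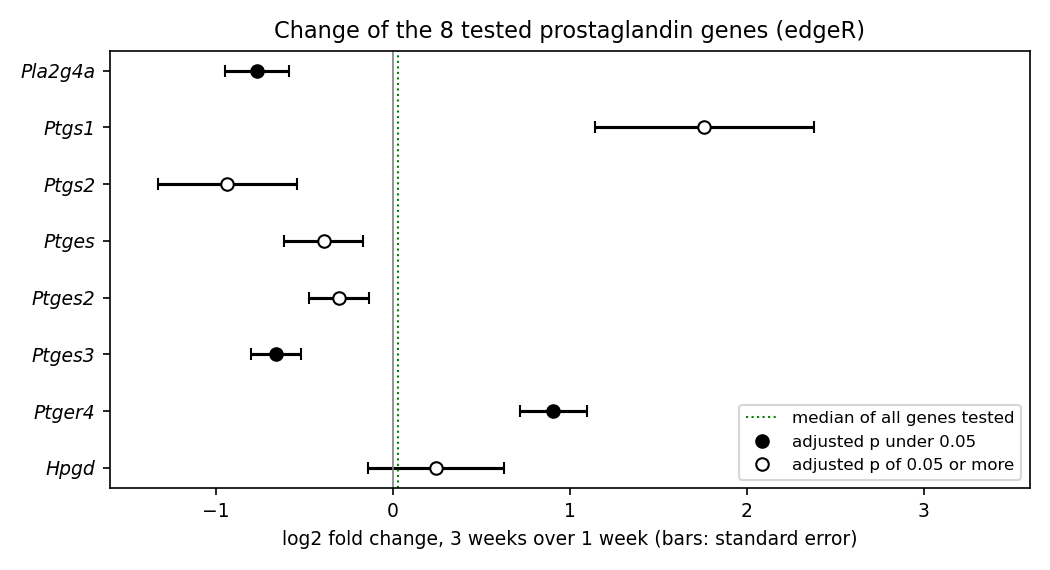
Points give the log2 fold change, 3 weeks over 1 week, of the 8 tested prostaglandin genes, with bars for the standard error, and the dotted line is the median of all tested genes (0.03). Filled points, at -0.77 for Pla2g4a, -0.66 for Ptges3 and 0.91 for Ptger4, have an edgeR adjusted p under 0.05, while Ptgs1 (1.76) and Ptgs2 (-0.94) have wide bars.

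Among the receptor genes, Ptger4 was higher at 3 weeks, at a low level throughout. It encodes EP4, a PGE2 receptor that raises cyclic AMP. The gene (ENSMUSG00000039942, chr15:5206661-5244187, minus strand) had 59, 73, 55 and 60 exon reads at 1 week and 136, 102, 73 and 79 at 3 weeks. The corresponding levels were 0.466, 0.533, 0.576 and 0.512 RPKM, and then 1.10, 0.934, 0.669 and 0.809 RPKM. The groups did not overlap, and the 3-week samples were more spread out than the 1-week samples. The mean rose from 0.522 ± 0.0458 to 0.877 ± 0.183 RPKM (SD, n = 4 each), a log2 change of 0.91 ± 0.19 (SE, edgeR adjusted p = 0.00686). In the 3 shared preparations, with the preparation number as a block, the log2 change was 0.94 (edgeR adjusted p = 0.0531).

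Most reads on Ptger4 lay outside its exons. Intron reads numbered 64, 78, 55 and 104 at 1 week and 127, 106, 87 and 149 at 3 weeks, between 48.3% and 65.4% of the reads on the gene in a sample. Over all samples the intron share was 54.7%, above that of 99.0% of the tested genes, whose median was 1.13%. Reads that joined exons numbered 0 to 4 per sample. Ttc33, a protein-coding gene on the opposite strand, has 1319 of its 2163 exon bases inside introns of Ptger4 and 82 inside its exons. Of the 6648 exon bases of Ptger4, 3321 lie within the span of Ttc33, which includes the introns of Ttc33. A processed pseudogene on the opposite strand, Gm15937, also touches an exon of Ptger4. The level of Ttc33 was 6.59 ± 0.377 RPKM at 1 week and 7.97 ± 1.13 RPKM at 3 weeks (log2 fold change 0.45, edgeR adjusted p = 0.0702), and 24.6% of its exon reads mapped to a single place. Whether the counting used the strand is not given in the sources used here. How many of the reads on Ptger4 came from Ttc33 or Gm15937 was not tested.

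**Figure D3:**
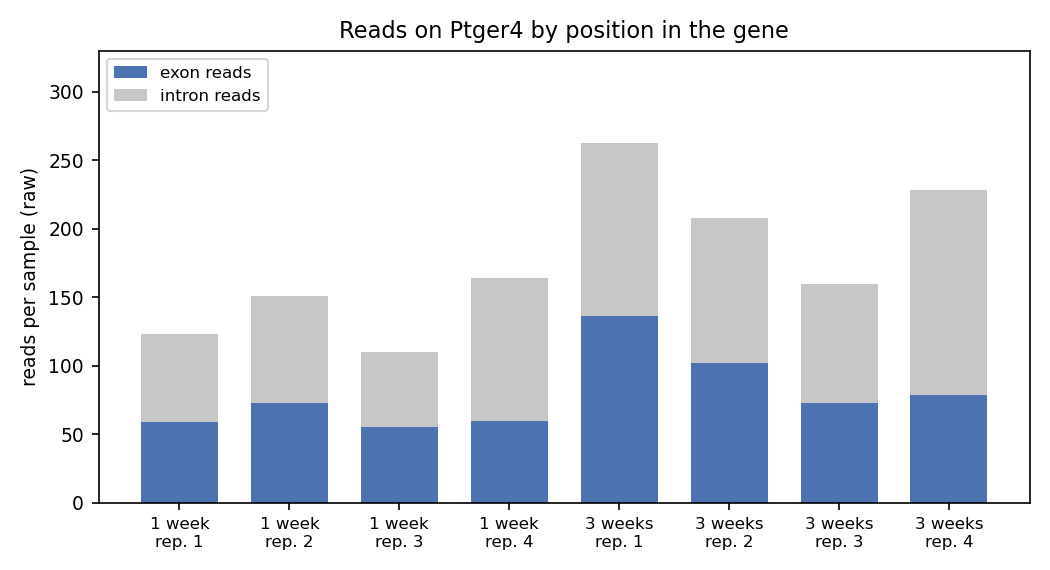
Stacked bars give the raw reads on Ptger4 in each of the 8 samples, exon reads in blue and intron reads in grey. Exon reads range from 55 to 73 at 1 week and from 73 to 136 at 3 weeks, and intron reads from 55 to 149.

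The 3 genes whose log2 level was most like that of Ptger4 over the 8 samples were Chpf (Pearson r = 1.00), Ubald1 (0.99) and Ralb (0.99), chosen from the same 8595 genes. All 3 were themselves higher at 3 weeks, with log2 fold changes of 0.84, 0.63 and 0.76. They were chosen for likeness over both times to a gene that was higher, so their rise is no separate result.

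Ptger2 encodes EP2, the other PGE2 receptor that raises cyclic AMP. This gene (ENSMUSG00000037759, chr14:44988195-45003820, plus strand) had 5, 4, 3 and 6 exon reads at 1 week and 1, 0, 1 and 0 at 3 weeks, too few for the test. The counts did not overlap between the times, yet only 5.00% of these reads mapped to a single place. Antisense genes overlap its exons, so the reads are uncertain. At 3 weeks every sample was under the limit of 3 reads, which equals 0.0310 to 0.0393 RPKM. With the read minimum removed, so that 21763 genes were tested, the log2 fold change was -2.70 ± 0.84 (SE, edgeR adjusted p = 0.0429).

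Hpgd encodes the dehydrogenase that starts the inactivation of PGE2, and its level differed more between samples of one time than between the times. This gene (ENSMUSG00000031613, chr8:56294585-56321043, plus strand) was at 21.8, 11.8, 29.4 and 26.5 RPKM at 1 week and at 11.2, 19.8, 32.1 and 30.3 RPKM at 3 weeks. The groups overlapped almost completely, with means of 22.4 ± 7.72 and 23.3 ± 9.76 RPKM (SD, n = 4 each). Its log2 fold change was 0.24 ± 0.38 (SE, edgeR adjusted p = 0.666), and without replicate 3 at 3 weeks it was -0.04 (adjusted p = 0.937). With the preparation block it was -0.37 (adjusted p = 0.313).

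Compared per length, the order of mean levels at 1 week was Ptgs2, Ptges3, Ptges, Hpgd, Pla2g4a, Ptges2, Ptger4, Ptgs1, Ptgis and Ptger2. At 3 weeks Ptges2 stood above Pla2g4a (5.00 ± 0.721 against 3.89 ± 0.475 RPKM), and the order was otherwise the same. Neighbours whose sample ranges overlapped at 1 week were Ptges and Hpgd, Pla2g4a and Ptges2, Ptgs1 and Ptgis, and Ptgis and Ptger2. At 3 weeks Ptgs2 and Ptges3 overlapped, since Ptgs2 was at 54.9 RPKM in replicate 4, as did Ptges and Hpgd, Ptges2 and Pla2g4a, Ptger4 and Ptgs1, and Ptgs1 and Ptgis. Replicate 4 at 3 weeks had the lowest Ptgs2 and Ptges3 and the highest Ptgs1, Ptges, Ptges2 and Pla2g4a of the 3-week samples.

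Of 22 other genes that make, carry, break down or sense prostanoids, 13 were tested, 4 were higher at 3 weeks and 1 was lower. Among all tested genes, 15.7% were higher and 17.0% lower. Hpgds, the hematopoietic prostaglandin D synthase, rose from 0.117 ± 0.0463 to 0.427 ± 0.166 RPKM (log2 fold change 2.03 ± 0.40, edgeR adjusted p = 0.00520), on 7 to 63 reads a sample. Abcc4, a transporter that exports prostaglandins, fell from 3.46 ± 0.748 to 1.85 ± 0.360 RPKM (log2 fold change -0.75, adjusted p = 0.0148). The reductases Cbr1 (0.53) and Ptgr2 (0.46) and the receptor-associated protein Ptgfrn (0.40) passed with smaller log2 changes. These calls were less stable, since Ptgfrn lost its call in 14 of 18 alternatives, Ptgr2 in 8 (adjusted p up to 0.174) and Cbr1 in 2. Of the remaining PGE2 receptors, Ptger3 had 3 to 21 reads at 1 week and 0 to 10 at 3 weeks (log2 fold change -1.70, edgeR adjusted p = 0.168). Ptger3 reached the read minimum in 3 samples at 1 week but in 1 at 3 weeks, so that it was tested because of its 1-week reads. Without replicate 4 at 3 weeks, which held its highest 3-week count (10 reads), the log2 fold change was -3.35 (edgeR adjusted p = 0.0176). That value rests on the same filter and is no independent support for a fall. Ptger1 had 0 to 18 reads, none of them mapped to a single place, and was not tested. Without replicate 2, 3 or 4 at 1 week 2 of these genes were higher, and without replicate 3 or 4 at 3 weeks 2 were lower. In the 3 shared preparations with a preparation block, 1 was higher (Hpgds, adjusted p = 0.0245) and 0 lower in edgeR, with adjusted p-values of 0.0914 for Abcc4, 0.0973 for Cbr1, 0.174 for Ptgr2 and 0.101 for Ptgfrn.

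Of 20 other phospholipases A2, lipid hydrolases and annexins, 9 were tested, 5 were higher and 0 lower in edgeR. The shares of all tested genes were 15.7% higher and 17.0% lower. The 5 were Pla2g16 (log2 fold change 1.72), Pla2g15 (1.37), Anxa1 (1.30), Pla2g6 (1.10) and Pnpla2 (0.76), in the opposite direction to Pla2g4a. Anxa1, which encodes a protein known to restrain phospholipase A2, went from 1435 ± 208 to 3163 ± 1018 RPKM (edgeR adjusted p = 0.00441). The median log2 fold change of the 9 genes was 0.88, and 8 of the 9 were above 0. None of the 9 was lower at an unadjusted p under 0.05 or in DESeq2, but the absence of lower genes rests on the filter on low counts, which left 11 genes of the list untested. Without the filter 3 genes were lower, Pla2g4d (edgeR adjusted p = 0.0235), Pla2g4e (0.0485) and Pla2g4f (0.00646), named after their values were seen. Pla2g4f had 10 to 81 reads at 1 week and 2 to 4 at 3 weeks. Leaving out 1 sample gave 0 to 2 lower genes, with 2 without replicate 3 at 3 weeks. With the preparation block 4 genes were higher and 1 was lower, and Anxa1 lost its call (adjusted p = 0.0510).

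A list of 17 genes for the lipoxygenase and leukotriene branch also held the epoxide hydrolase genes Ephx1 and Ephx2. Of the 17 genes, 8 were tested, 1 rose and 1 fell, beside 15.7% and 17.0% of all tested genes. Ephx2, a soluble epoxide hydrolase of fatty acid epoxides, rose from 0.612 ± 0.0452 to 3.84 ± 1.34 RPKM (log2 fold change 2.81 ± 0.27, edgeR adjusted p = 0.000317). Ltb4r1, a receptor of leukotriene B4, fell from 4.83 ± 1.20 to 1.30 ± 0.344 RPKM (log2 fold change -1.73 ± 0.27, adjusted p = 0.00170). The count of lower genes was 2 without replicate 2 at 1 week or replicate 3 at 3 weeks and 3 without replicate 4 at 3 weeks or with the preparation block.

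Of 25 genes of the cyclic AMP relay below EP2 and EP4, 19 were tested, 1 rose and 4 fell. Beside this, 15.7% of all tested genes rose and 17.0% fell. Gnas, which encodes the stimulatory G protein subunit, rose by 0.74 on the log2 scale (edgeR adjusted p = 0.00315), though only 18.0% of its exon reads mapped to a single place. The regulatory subunits of protein kinase A Prkar2b (log2 fold change -1.36) and Prkar2a (-0.58), the adenylyl cyclase gene Adcy3 (-1.29, with 54.3% of reads mapped to a single place) and the transcription factor gene Creb1 (-0.67) fell. The other 14 genes, among them the catalytic subunits Prkaca and Prkacb, did not pass the test.

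**Figure D4:**
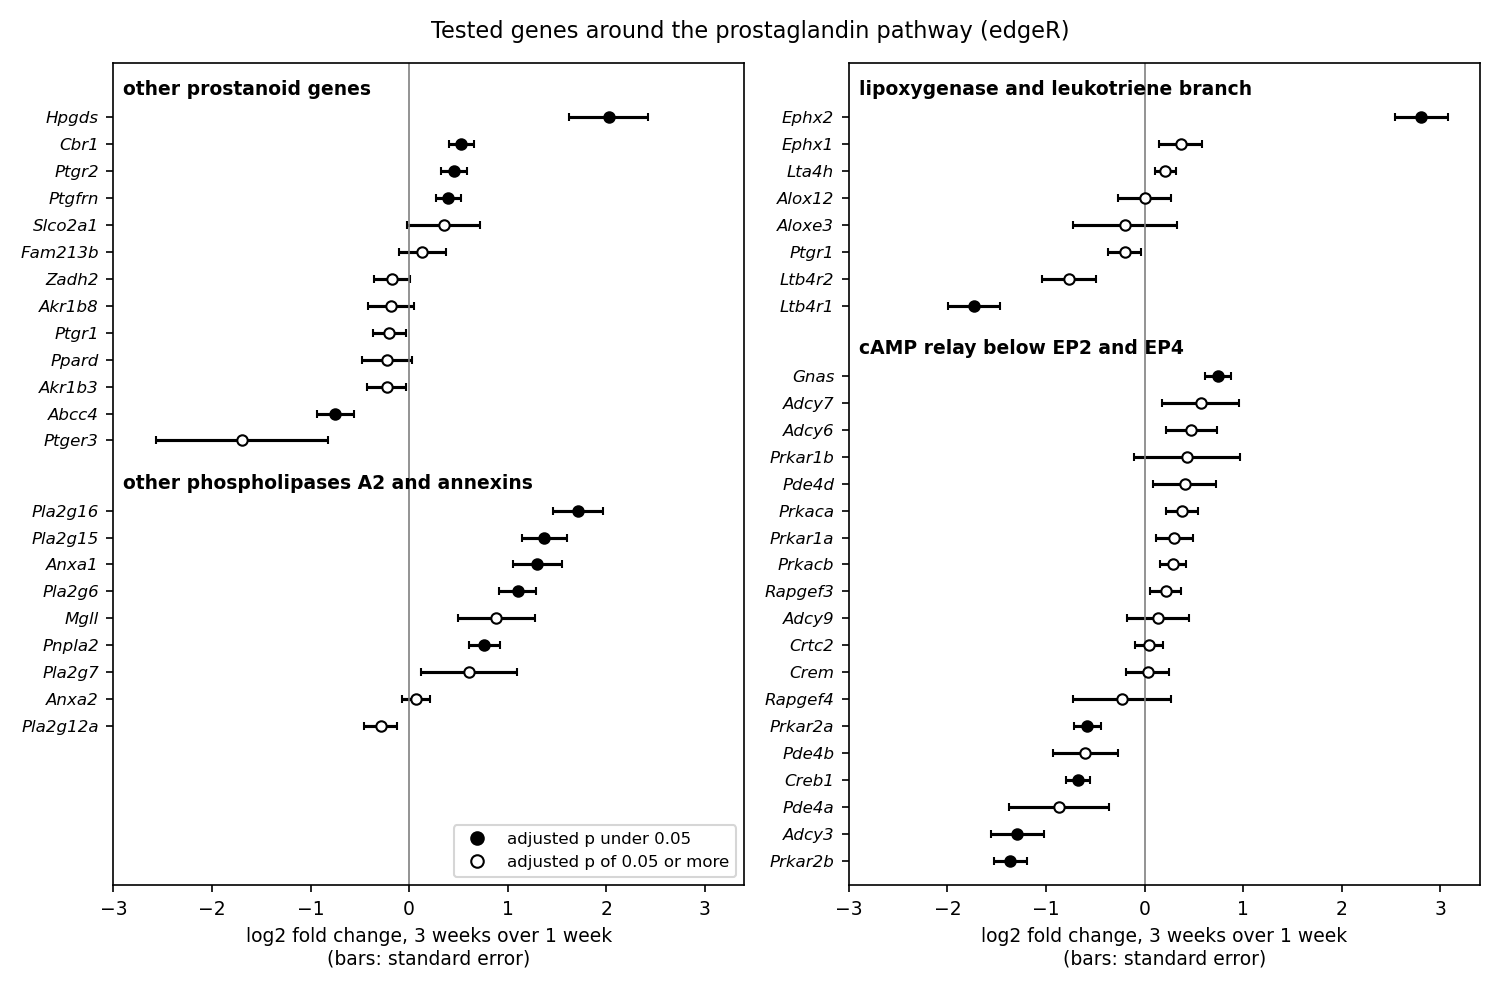
Points give the log2 fold change, 3 weeks over 1 week, with the standard error for the tested genes of 4 lists around the prostaglandin pathway, and filled points have an edgeR adjusted p under 0.05. The lists hold 13, 9, 8 and 19 tested genes, with Ptgr1 in 2 lists, and the filled points run from -1.73 (Ltb4r1) to 2.81 (Ephx2).

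Markers of other cell types were measured beside these results. The smooth muscle list summed to 173 to 448 RPKM at 1 week and 1263 to 3203 RPKM at 3 weeks. Acta2, Tagln and Cnn1 were higher (3 of 5 genes), though only 32.6% of the exon reads of Tagln mapped to a single place. Myh11, at 1.50 RPKM or less, had 2, 7, 3 and 4 reads at 1 week and 171, 47, 4 and 167 at 3 weeks. Myh11 was not tested, and Des was at 0.162 RPKM or less. The immune list summed to 2.65 to 5.87 and then 4.73 to 11.9 RPKM, with 1 of 8 genes, H2-Ab1, higher and Cd207 without reads in any sample. The melanocyte list summed to 3.18 to 20.9 and then 1.26 to 5.50 RPKM (1 of 5 genes lower), and the suprabasal list to 3.96 to 26.7 and then 3.86 to 13.6 RPKM (1 of 5 lower). Fibroblast markers summed to 4.00 to 6.98 and then 2.84 to 6.14 RPKM (1 of 8 lower), and endothelial markers to at most 0.660 RPKM, with neither of the 2 tested genes called. Mast cell markers summed to at most 0.399 RPKM, none of the 5 was tested, and Fcer1a was without reads. Their part in the changes of the prostaglandin genes was not tested.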

How the data were processed

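The deposited gene tables of KC RNA, 1 for each culture, were used, with groups and replicate numbers from the labels. Per the study's methods, poly(A) libraries were sequenced on an Illumina HiSeq 2500 for 59 cycles and mapped to GRCm38 with CLC Genomics Workbench 12.0 at default settings. The annotation release and the use of strand are not given in the sources used here. All 10 members have the same ends in GENCODE M21. The deposited count columns hold raw reads per gene (total and unique exon reads, intron and gene reads), and the deposited RPKM values are exon reads scaled to exon length and mapped reads. Their decimal commas were read as points.

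Total exon reads of all 8 samples were tested without pairing in edgeR 4.0.16 (R 4.3.3): filterByExpr, TMM, glmQLFit, glmQLFTest. Standard errors came from the F statistics. The code was tested on simulated counts. Alternatives were DESeq2 1.42.0, limma 3.58.1 on log2(RPKM + 0.1) or log2(RPKM + 1), other scaling, filters and read types, blocks, and the omission of each sample. The smallest chi-square per degree of freedom between replicates was 14.6, so each counted once.

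The members and lists were chosen with earlier results of these data known. From the lists, every called gene (at most 8 of the largest log2 fold change) and the receptors Ptger1 and Ptger3 are named, as are the 3 genes most correlated with the members that rose and fell most among called ones (mean of at least 10 CPM, no predicted genes). Read limits cover counting error only. Plots used matplotlib 3.10.9 in Python 3.11.15.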

Additional observations from a re-analysis of the deposited data

Results flagged for a closer look

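Ptgs1 in replicate 4 at 3 weeks stood apart from the other samples of its time, at 0.964 RPKM beside 0.188 to 0.262 RPKM. Its gap to the nearest sample was 0.904 of the range of the group, above Dixon's critical value for 4 samples. It was the only case among 20 groups of 4 samples (10 genes at 2 times), and chance gives about 1 in 20. The same library had the lowest Ptgs2 level, 54.9 RPKM.

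Intron reads on Ptger4 lie outside the measure that was tested. They numbered 55 in the lowest sample and 149 in the highest, above the limit of 3 reads in each of the 8 samples. With intron and exon reads counted together, the log2 fold change of Ptger4 was 0.89 (edgeR adjusted p = 0.00438). The part of Ttc33 and Gm15937 in these reads was not tested.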

How the results depend on the processing

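The log2 fold changes of the 8 tested members gave 143 values under 18 alternatives, of which 134 kept their direction and their side of the threshold, 6 gained a call, 1 lost it and 2 reversed. Pla2g4a (adjusted p 0.000881 to 0.0497) and Ptges3 (4.1e-05 to 0.0315) stayed lower and called in all 18. Ptgs1 was called by DESeq2 (1.79, adjusted p = 0.0240) and edgeR on total gene reads (1.76, 0.0442), and left the test with at least 10 reads in every sample. Ptgs2 was called by DESeq2 (-0.93). With the 3 shared preparations and a preparation block, Ptger4 lost its call (0.94, 0.0531) and Hpgd reversed (-0.37, 0.313). Hpgd also reversed without 3 weeks replicate 3 (-0.045).

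Same-numbered samples deviated from their group means with correlations of -0.23, -0.15, -0.15 and 0.25, so the replicate numbers were not taken as pairs, and not every sample correlated best with its own number. Samples of the same preparation number had correlations of -0.23 (46), 0.20 (49) and 0.25 (90), above 0 in 2 of the 3 shared preparations. The highest correlation between the times, 0.42, was that of 1 week replicate 1 (46) with 3 weeks replicate 3 (57), which carry different numbers. Whether the numbers mark a shared origin was not tested. With a replicate block in edgeR, Ptgs1 (1.63, adjusted p = 0.0346) and Ptgs2 (-0.95, 0.0416) were called. In that setting 2 members and 1 other prostanoid gene were higher, and 2 genes of the lipoxygenase and leukotriene list were lower.

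Leaving out each sample in turn gave log2 fold changes of 0.98 to 2.11 for Ptgs1 and -0.04 to 0.48 for Hpgd. Ptgs1 was called without 3 weeks replicate 2 (2.01, 0.0481). The count of members that rose was 1 to 2, and of other prostanoid genes 2 to 4 were higher and 1 to 2 lower. Of phospholipases and annexins 0 to 2 were lower, and of the lipoxygenase and leukotriene list 1 to 3. Members that rose numbered 2 with DESeq2 and total gene reads and 0 with the preparation block. Other prostanoid genes that rose numbered 2 without a filter and with limma on either RPKM scale, and 1 with the preparation block, where 0 fell. Phospholipases that fell numbered 3 without a filter and 1 with the preparation block. Genes of the lipoxygenase and leukotriene list that fell, with the receptor gene Ltb4r1 among them, numbered 2 with DESeq2, upper-quartile scaling and no filter. They also numbered 2 with limma on either scale, and 3 with the preparation block. These settings differ in samples, filter, scaling, reads or model, and the cause of the shifts in these counts was not tested. Limma on log2(RPKM + 0.1) shifted the median of all genes from 0.03 to -0.16, with 1313 genes higher and 3089 lower, beside 1981 and 2146 in edgeR. Of the other named genes, 27 of 322 values lost a call, 14 of them Ptgfrn. Depth limits Ptgs1, Ptgis and Ptger2, which had at most 55, 8 and 6 reads.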

Other observations

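Several relatives of Pla2g4a had too few reads for the test and were picked out here after their values were seen. Pla2g4f, an epidermal phospholipase A2 of the same family, had 10, 16, 36 and 81 exon reads in the 1-week cultures, in replicate order, and 2, 4, 2 and 3 in the 3-week cultures. Pla2g4e had 12, 10, 24 and 37 reads and then 3, 6, 8 and 2, and Pla2g4d had 3, 2, 8 and 16 and then 0, 0, 1 and 0. Replicates 3 and 4 at 1 week were the highest for all 3 genes. The suprabasal markers summed to 20.6 and 26.7 RPKM in these samples, beside 5.56 and 3.96 RPKM in replicates 1 and 2. At 3 weeks the sum was 3.86, 3.96, 3.93 and 13.6 RPKM in replicates 1 to 4. Most of the sum in replicate 4 came from the marker Ivl, at 10.3 RPKM beside 2.04 RPKM or less in replicates 1 to 3. Krt1, Krt10, Lor and Flg were each at 2.68 RPKM or less in replicate 4, beside 2.43 RPKM or less in replicates 1 to 3. The higher sum in replicate 4 is thus mainly that of 1 marker. Replicate 4 at 3 weeks had 3, 2 and 0 reads on Pla2g4f, Pla2g4e and Pla2g4d. Whether these genes follow the suprabasal markers was not tested. Alox12b, a lipoxygenase of the epidermal barrier, had 14, 9, 46 and 82 reads at 1 week and 4, 1, 5 and 4 at 3 weeks. Pla2g4a itself was lower in replicates 3 and 4 at 1 week (5.91 and 6.51 RPKM) than in replicates 1 and 2.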
